A study of Mus musculus with 14 samples.

Results

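The regions described here are the TAF9B ChIP-seq peaks that lie between genes and carry no RNA POL2 peak, called intergenic TAF9B-only peaks below. They were chosen by 3 values of the deposited tables: no overlap of even 1 bp with a peak of the POL2 list, a midpoint outside every gene locus of the RNA-seq table, and a distance of more than 500 bp from every locus end, with the mitochondrial chromosome left out. The rule selected 3040 of 10415 TAF9B peaks (29.2%), and 43.8% of the 6940 nuclear TAF9B peaks without POL2 overlap. The absence of POL2 and of a nearby gene is therefore the choice itself and no finding. The study asked which genes TAF9B, a paralog of the general transcription factor subunit TAF9, acts on when mouse embryonic stem (ES) cells become motor neurons. Chromatin came from embryoid bodies (EBs) of the wild type ES line HBG3, which carries a GFP reporter under the *Mnx1* promoter, after 8 days of motor neuron differentiation, and TAF9B, POL2 and control IgG were each precipitated in 1 library. RNA-seq was made from the wild type ES line JM8 and from Taf9b_BG10, 1 clone of genotype *Taf9b*-/- in which a LacZ-Neo cassette replaces coding exons, both of C57BL/6 background, as ES cells and as EBs at days 2, 4 and 6, from newborn spinal column of wild type and *Taf9b*-/- mice, and from wild type newborn spinal cord. No condition has a second library, so no difference below could be tested against replicate error, and the 95% Wilson intervals given with shares cover counting error only.

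TAF9B is a histone fold protein found in TFIID, the factor that recognizes core promoters, and in SAGA, a coactivator complex with histone acetyltransferase and deubiquitinase activity. Sites far from promoters at which such coactivators gather are often enhancers, DNA elements that raise the transcription of a gene over a distance by binding sequence-specific activators. In the developing nervous system many enhancers are bound by proneural basic helix-loop-helix (bHLH) factors, which recognize E-boxes, whereas the zinc finger protein CTCF binds a longer sequence at insulators and at the anchors of chromatin loops.

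The following sequences show both kinds of letters in intergenic TAF9B-only peaks. The first 4 are whole peaks near neural genes, given 5′ to 3′ on the plus strand of mm9, with every E-box of the form CANNTG in capitals: the peak downstream of the progenitor gene *Nkx6-1* at chr5:102085195-102085419, the farther of the peaks upstream of the Notch ligand gene *Dll1* at chr17:15517627-15517890, the peak upstream of *Lhx4* at chr1:157597677-157597853, to which the study designed ChIP primers, and the peak downstream of *Neurog2* at chr3:127342848-127343063.
Nkx6-1 peak: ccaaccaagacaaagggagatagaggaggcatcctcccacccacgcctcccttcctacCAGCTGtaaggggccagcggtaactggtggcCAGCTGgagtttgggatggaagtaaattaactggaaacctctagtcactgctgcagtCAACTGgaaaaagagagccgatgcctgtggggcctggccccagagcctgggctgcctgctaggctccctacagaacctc
Dll1 peak: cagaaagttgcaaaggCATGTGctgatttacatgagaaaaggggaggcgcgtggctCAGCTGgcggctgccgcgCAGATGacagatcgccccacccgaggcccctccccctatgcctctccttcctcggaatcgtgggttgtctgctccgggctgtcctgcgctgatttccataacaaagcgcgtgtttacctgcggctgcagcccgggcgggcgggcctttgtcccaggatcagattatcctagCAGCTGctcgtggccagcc
Lhx4 peak: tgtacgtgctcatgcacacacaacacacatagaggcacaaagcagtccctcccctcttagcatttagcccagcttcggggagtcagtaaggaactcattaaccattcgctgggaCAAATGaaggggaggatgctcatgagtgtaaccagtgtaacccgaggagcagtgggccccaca
Neurog2 peak: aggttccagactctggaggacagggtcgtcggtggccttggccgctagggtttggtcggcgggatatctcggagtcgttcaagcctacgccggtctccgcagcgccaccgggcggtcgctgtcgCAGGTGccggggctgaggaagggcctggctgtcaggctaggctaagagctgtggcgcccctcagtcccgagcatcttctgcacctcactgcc
The next 5 are 20 bp stretches of the 5 highest-scoring peaks that hold the CTCF-type letters (CCACNAG followed after 2 bases by GGC), which are in capitals. They lie near *Zfp286* (chr11:62570412-62570431, plus strand), *Snx19* (chr9:30288213-30288232, plus strand), *Saysd1* (chr14:20886744-20886763, minus strand), *Tenm2* (chr11:35814989-35815008, minus strand) and the mesendoderm gene *Eomes* (chr9:118398967-118398986, minus strand).
Zfp286 site: cgctCCACCAGAGGGCgcag
Snx19 site: aagtCCACAAGAGGGCacac
Saysd1 site: atgtCCACAAGGTGGCaccc
Tenm2 site: ttggCCACCAGATGGCagac
Eomes site: gtggCCACCAGATGGCggag
The *Nkx6-1* peak held 3 E-boxes, the *Dll1* peak 4, and the *Lhx4* and *Neurog2* peaks 1 each. These peaks were picked to show E-boxes: the nearer *Dll1* peak and both peaks upstream of *Hes5* held 0. A match is a description of the letters and not a measured binding site.

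The labels were checked against the targeted gene and marker genes. Levels are in FPKM, fragments scaled to transcript length and to the number of mapped fragments. *Taf9b* itself stood at 4.01 FPKM in the EB day 6 library labelled KO against 1.37 FPKM in the one labelled WT, and at 3.06 against 0.537 FPKM in ES cells. In spinal column the order was the opposite, with 3.31 FPKM labelled KO and 6.65 FPKM labelled WT. Directions below therefore refer to "the library labelled KO" and "the library labelled WT". All 8 markers of motor neurons or of neurons in general checked (*Mnx1*, *Isl1*, *Isl2*, *Lhx3*, *Lhx4*, *Chat*, *Slc18a3* and *Tubb3*) were above 1 FPKM in the EB day 6 library labelled WT and more than 2-fold lower in the library labelled KO, where 2 stayed above 1 FPKM and the summed level was 44.7 against 639 FPKM. The pan-neuronal gene *Tubb3* made up most of both sums, at 41.3 and 561 FPKM. The pluripotency genes *Pou5f1*, *Nanog*, *Klf4* and *Esrrb* summed to 823 FPKM in the library labelled KO and 293 FPKM in the library labelled WT. The part of these differences in the EB day 6 results below was not tested. In EBs and tissue, fewer cells of a type and less RNA per cell cannot be told apart.

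The median score of the intergenic TAF9B-only peaks was below the 83.3 of the whole TAF9B list. The score is that of the peak caller MACS, and no peak of the list was under 50. Its median was 73.7 between genes and 71.8 for the 2645 TAF9B-only peaks inside genes, against 91.1 for the 1255 TAF9B-only peaks at gene ends, 99.6 for the 866 TAF9B-POL2 peaks away from gene ends and 105 for the 2603 TAF9B-POL2 peaks at gene ends. A score of 100 or more was reached by 28.3% of the intergenic peaks (95% interval 26.7 to 29.9%) and by 53.7% of the TAF9B-POL2 peaks at gene ends (51.8 to 55.7%), intervals that do not overlap. The median width was 198 bp between genes, against 201 bp inside genes and 252 bp at TAF9B-POL2 gene ends. The highest nuclear score was nevertheless intergenic. The peak at chr7:141615238-141616205 scored 3100, 47.2 kb upstream of *D7Ertd443e*, where the highest score inside genes was 1595. The highest score on the mitochondrial chromosome was also 3100, and whether this is an upper limit of the score was not tested. The second intergenic peak by score, at chr4:150058573-150059308, had 1019, 32.7 kb upstream of *Slc45a1*. Both were wide, at 968 and 736 bp, and neither had a CpG dinucleotide in its central 200 bp. None of the 30 highest-scoring intergenic peaks on placed chromosomes had a further copy in the genome (at least 90% identity over at least 80% of its length), and 16 of all 3033 did.

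**Figure D1:**
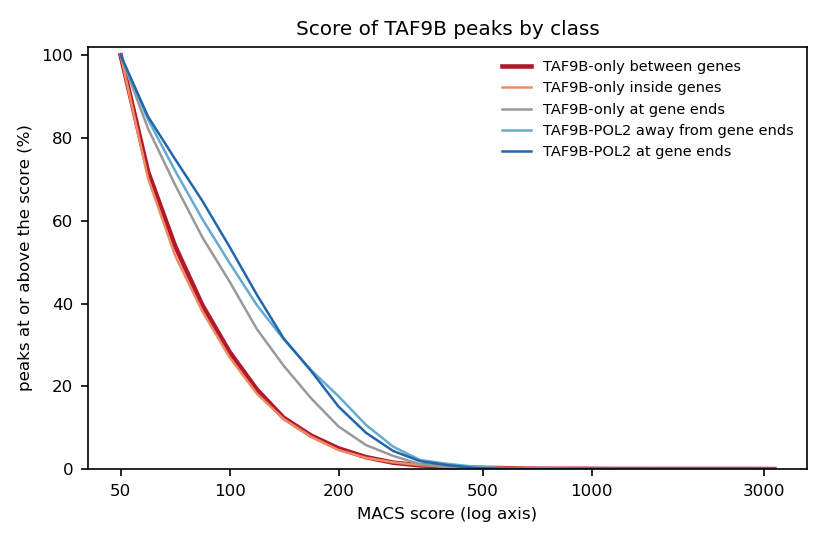
Share of TAF9B peaks (vertical axis, %) that reach a given MACS score (horizontal log axis), by class. The curve of the 3040 intergenic TAF9B-only peaks has 28.3% at a score of 100 or more, beside 27.0% inside genes and between 45.3% and 53.7% in the other 3 classes.

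At the edges of the rule, the intergenic peaks nearest to a locus lay 502 bp from *Fgf9* (score 50.2), 505 bp from *Tgfb3* (191) and 507 bp from *Olfml3* (58.0). Just outside it were TAF9B-only peaks 499 bp from *Asf1b* (53.7), 497 bp from *Ice1* (140) and 494 bp from *Med9* and *Rasd1* (177). In all, 905 TAF9B-only peaks with a midpoint outside the loci fell within the margin. For POL2, the smallest gaps between an intergenic peak and a POL2 peak were 13 bp near *Dnah2*, 52 bp near *Mn1* and 58 bp near *Mir7b*, and 67 peaks had a POL2 peak within 1 kb. Another 391 TAF9B peaks in the same positions overlapped POL2. The median gap between an intergenic peak and the nearest POL2 peak was 104 kb. The rule itself removes peaks that overlap POL2 or lie near gene ends, and no reference gap was computed.

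The median distance to the nearest locus was 20.6 kb, with the middle 50% of peaks between 5.58 and 71.8 kb. Of the 3040 peaks, 23.5% lay within 5 kb of a locus, 67.9% within 50 kb (66.2 to 69.6%) and 10.3% beyond 200 kb. The farthest lay 1845 kb from *Tmeff2* and scored 51.7. The median score was 76.9 within 5 kb and 70.1 beyond 200 kb. Where the nearest gene had a single strand in the GENCODE annotation, 55.3% of peaks lay on its upstream side (1322 of 2389, 53.3 to 57.3%), and within 5 kb 59.3% did. The loci come from RefSeq genes, and GENCODE is wider: 319 peaks (10.5%) had their midpoint inside a GENCODE gene, 207 of them in protein-coding genes and 57 in lincRNA genes, and 129 peaks lay within 500 bp of a GENCODE transcript start. These 129 had a higher median score, 85.1, and 48.8% of them held 10 or more CpG in the central 200 bp. The highest-scoring of them were at starts of *1700125H20Rik* (457), *Pemt*, a phospholipid methyltransferase gene (345), and *Ckap5*, which encodes a microtubule-binding protein (304).

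Most intergenic TAF9B-only peaks stood alone. With midpoints chained at up to 10 kb, 2680 were single, and 360 (11.8%) fell into 163 pairs, 10 groups of 3 and 1 group of 4. The group of 4 spanned 14.1 kb at chr8:122931719-122945846, nearest to the locus of *Gins2* and *Gse1*, with scores from 53.2 to 199. Groups of 3 lay near *Tbx2*, *Grik3*, *Nfasc*, *Add2*, *Tle3* and *Slc1a4*, among others. The *Tbx2* group, beside a T-box repressor gene, spanned 6.12 kb and began 1.48 kb from the locus.

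The peaks were unevenly spread over chromosomes. Chromosome 11 held 329 of them in 64.0 Mb of sequence between genes, or 5.14 per Mb, against a median of 1.95 per Mb over the autosomes and a lowest value of 1.53 per Mb on chromosome 14. The POL2 list was also densest on chromosome 11, at 8.07 peaks per Mb against an autosome median of 3.38, and the TAF9B list as a whole had 10.1 peaks per Mb there, with 292 of the 2645 peaks inside genes. The number of copies of chromosome 11 in the HBG3 line was not tested. Chromosome 11 had 13.3 loci per Mb, and chromosome 7 had 13.7 loci and 2.07 intergenic TAF9B-only peaks per Mb. The part of gene density in these values was not tested. Chromosome X held 20 peaks in 119 Mb between genes, or 0.169 per Mb, and chromosome Y none in 2.05 Mb. The TAF9B list as a whole and the POL2 list were also sparse on X, at 0.648 and 1.06 peaks per Mb.

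The sequence at the midpoint differed from the sequence 2 kb to its sides. In 3033 windows of 200 bp, the median GC content was 52.0%, against 45.5% in the side windows and 41.0% in 156718 windows set every 10 kb between genes. The median number of CpG was 4, against 2 and 1. Of the intergenic peaks, 13.8% held 10 or more CpG (12.6 to 15.1%), compared with 16.3% of TAF9B-only peaks inside genes (14.9 to 17.7%), 74.4% of TAF9B-only peaks and 88.1% of TAF9B-POL2 peaks at gene ends. Higher GC content by itself changes how often a word of letters occurs, and its part in the shares below was not tested.

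Of the words searched on both strands, CAGCTG, an E-box with a GC centre, occurred in 20.1% of the intergenic peaks (18.7 to 21.6%), 9.56% of side windows (8.85 to 10.3%) and 6.53% of windows between genes. Its share was 21.1% in TAF9B-only peaks inside genes, 16.6% at TAF9B-only gene ends and 10.8% at TAF9B-POL2 gene ends. CAGATG, the E-box with a GA centre, was at 18.1% against 15.2% at the sides, and CATATG, with a TA centre, was at 2.44% against 5.29%. The letters CANNTG, which include all of these, were at 70.1% and 65.8%. The homeodomain word TAATTA was at 5.18% and 5.39%, intervals that overlap, the AP-1 word TGAGTCA at 3.56% and 3.51%, and TATAAA at 5.77% and 14.1%. The word TGACGTCA, bound by CREB family factors, was in 0.692% of the intergenic peaks, 0.132% of side windows and 4.35% of TAF9B-POL2 peaks at gene ends, and GTTGCCATG, a part of the RFX recognition sequence, was in 1.32% against 0.264% at the sides.

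The CTCF-type letters gave the widest ratio among the words searched. They were in 245 of 3033 intergenic peaks, 8.08% (7.16 to 9.10%), against 0.280% of side windows and 0.107% of windows between genes, a ratio of 28.8 to the sides. They can also contain CAGATG, as near *Tenm2* and *Eomes*. The 8-letter word CAGGGGGC, which can overlap them, was in 3.69% against 0.742%. The CTCF-type letters were searched after a listing of 7-letter words had placed CCACTAG among its first 5 words. CCACTAG was present in 8.67% of the intergenic peaks and 1.42% of side windows. The words ranked above it all held a CpG, led by GGCGCCA, at 3.82% against 0.346%. Inside genes 6.73% of TAF9B-only peaks held the CTCF-type letters, whereas the share was 1.83% at TAF9B-only gene ends and 0.962% at TAF9B-POL2 gene ends, with intervals that do not reach those of the intergenic peaks. By position, 3.83% and 4.35% of the peaks had them in the 100 bp on either side of the midpoint, and no other 100 bp bin within 1000 bp exceeded 0.231%. The GC-centred E-box was broader, at 10.7% and 10.9% beside the midpoint, 7.03% and 6.70% in the next bins and 4.42% to 5.61% farther out.

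**Figure D2:**
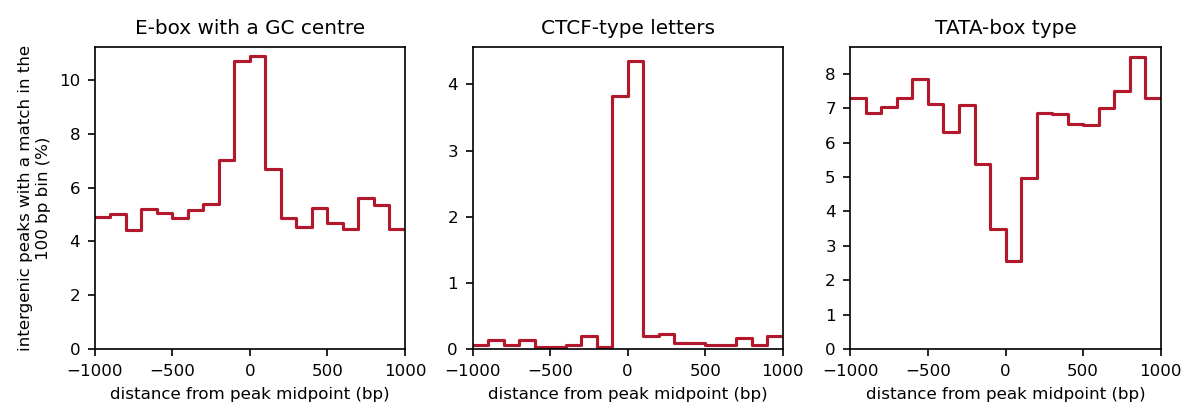
Share of intergenic TAF9B-only peaks (vertical axes, %) with a match in each 100 bp bin, against the distance of the bin from the peak midpoint (horizontal axes, bp), for the GC-centred E-box, the CTCF-type letters and the TATA-box type letters. The first 2 are highest in the bins beside the midpoint, at 10.9% and 4.35%, and the third is lowest there, at 2.57%.

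The GC-centred E-box was alone in 570 peaks, the CTCF-type letters were alone in 205, and 40 held both. The E-box was thus in 40 of the 245 peaks with the CTCF-type letters, beside 610 of all 3033. Peaks with the CTCF-type letters lay closer to loci, at a median of 11.9 kb, than those with the E-box, at 26.3 kb, and 79.6% against 64.1% were within 50 kb. The 419 peaks with 10 or more CpG were closest, at 8.55 kb, and had the highest median score, 88.7. In 1891 peaks none of these 3 features was found. The shares of both words differed little with score. From the lowest to the highest scores, in 4 groups of about equal size, the CTCF-type share was 7.39, 9.76, 7.79 and 7.37%, and the E-box share was 18.6, 18.5, 21.7 and 21.7%, whereas the CpG-rich share went from 8.71 to 20.5%.

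The study had designed ChIP amplicons for 6 genes, and 1 of these amplicons lay in an intergenic TAF9B-only peak. The distal *Lhx4* amplicon (chr1:157597722-157597941) shared 132 of its 220 bp with the peak printed above, which scored 95.2 and lay 8.61 kb upstream of the gene, a LIM homeodomain factor of motor neurons. The distal amplicon of *Neurog2* (labelled *Ngn2*), a proneural bHLH gene, lay in a TAF9B-only peak 423 bp from the locus, which counts as a gene end. Beyond it, intergenic peaks stood on both sides of *Neurog2*, 4.41 kb downstream (score 76.7) and 7.67 kb upstream (94.6), the latter nearer to *Zgrf1*. *Ccnc*, which encodes the cyclin of the Mediator kinase module, had intergenic peaks 0.669 and 15.3 kb upstream, scoring 57.9 and 62.0. *Hes6*, *Mnx1* and *Tubb3* had none within 50 kb.

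Within 50 kb, 2065 intergenic peaks were nearest to 1807 loci with 1997 genes. This is 8.56% of all 21110 loci (8.19 to 8.94%). Most of these loci, 1582, had 1 such peak, 201 had 2, and 24 had 3 or more. The loci with 5 peaks were those of *Ypel2* and *1700109G15Rik*, and the loci with 4 were those of *Tbx2*, *Sparc*, *Nfasc*, *Tle3* and *Mir3089*. Of the 17 loci with 3 peaks, *Jam3*, *Grik3* and *Fez1* had the highest summed scores and *Wnt3a* is described below.

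The share of genes nearest to an intergenic TAF9B-only peak was compared over 19 lists, written with earlier results of these data known. It was above the share of all loci in 17 of them. With only peaks of a score of at least 100 most shares were smaller, with 15.4% of proneural, 11.1% of progenitor domain and 18.2% of neural Sox genes, beside 2.80% of all loci. Interneuron genes were then at 4.76%, and the LIM, retinoic acid and respiratory chain lists had no gene left. With peaks of any score, the share among transcription factors was 7 of 13 proneural bHLH genes (53.8%, 29.1 to 76.8%), 6 of 13 Hes, Hey and Id repressor genes (46.2%) and 5 of 11 neural Sox genes (45.5%). It was 8 of 18 progenitor domain genes (44.4%), 8 of 21 spinal interneuron genes (38.1%) and 5 of 19 pan-neuronal differentiation genes (26.3%). For signals and receptors the shares were 8 of 25 Fgf, Wnt and Bmp ligand genes (32.0%), 5 of 16 Notch pathway genes (31.2%), 9 of 30 axon guidance genes and 5 of 20 retinoic acid pathway genes. Shares with intervals that hold the 8.56% of all loci were found for 3 of 13 Sonic hedgehog pathway genes (23.1%), 2 of 11 LIM and *Mnx1* genes (18.2%), 4 of 24 neuronal RNA-binding and cytoskeleton genes (16.7%), 4 of 30 ribosomal protein genes (13.3%), 4 of 39 Hox genes (10.3%, but 64.1% beside 18.8% of all loci where any intergenic peak within 50 kb was counted, nearest or not), 1 of 17 pluripotency genes (5.88%) and 1 of 31 respiratory chain genes (3.23%). Mesoderm and endoderm factors (5 of 21, 23.8%) and mediator subunits (6 of 32, 18.8%) lay between, with intervals above 8.56%.

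Developmental genes often have wide stretches of DNA around them, which gives more room for a peak. The part of such room in the list shares was not tested. The stretch to which a locus was the nearest, up to 50 kb, had a median of 21.6 kb over all loci and 53.0 kb for the proneural genes, 4.69 kb for the Hox genes and 6.46 kb for ribosomal protein genes. Per Mb of this stretch there were 3.08 intergenic peaks over all loci, 17.7 for the Hes, Hey and Id genes, 12.4 for the proneural genes, 11.4 for the Notch genes, 7.47 for the progenitor domain genes, 2.92 for the neuronal RNA-binding and cytoskeleton genes and 1.16 for the pluripotency genes. On this scale the ribosomal protein genes stood at 10.2 and the Hox genes at 9.49, each from 4 peaks.

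**Figure D3:**
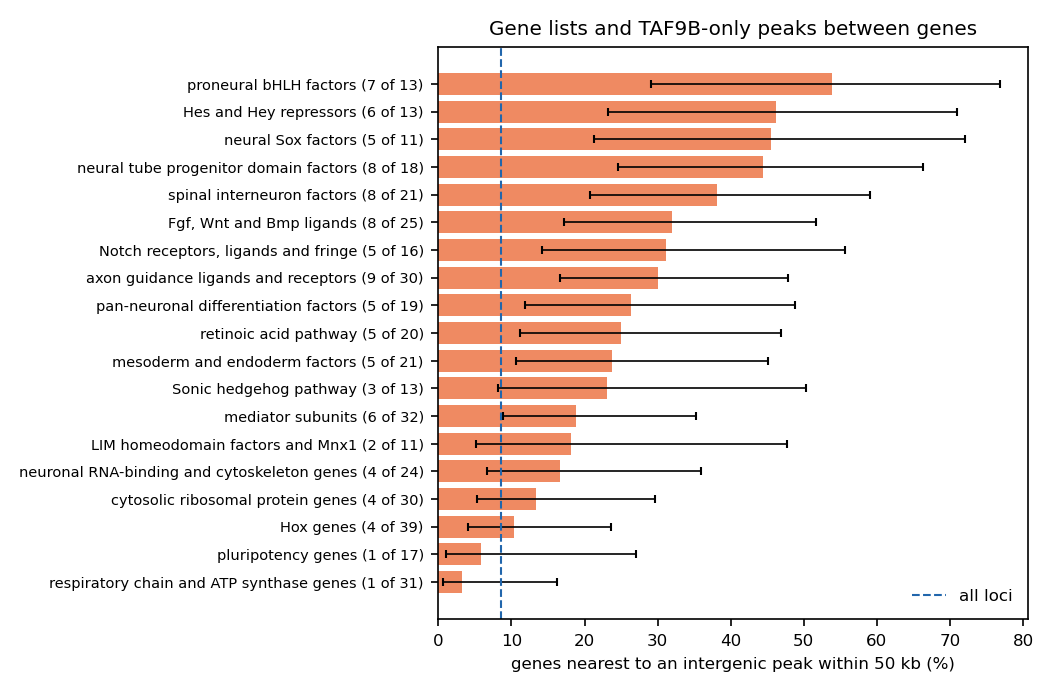
Share of the genes of each list (horizontal axis, %) whose locus is the nearest to an intergenic TAF9B-only peak within 50 kb, with 95% Wilson intervals as black lines and the share of all loci, 8.56%, as a dashed line. Counts stand beside the list names, and 17 of the 19 bars pass the line.

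Genes nearest to an intergenic TAF9B-only peak were expressed more often than all genes. In the EB day 6 library labelled WT, 60.6% (58.5 to 62.7%) were above 1 FPKM, against 53.4% of all genes, and the median was 2.82 against 1.55 FPKM. The difference was also present in ES cells (55.9 against 51.3%). From the ES cell to the EB day 6 library labelled WT, which were normalized in separate tables, 375 of 1277 of these genes (29.4%, 26.9 to 31.9%) were more than 2-fold higher, beside 23.2% of all genes, and 15.7% were more than 2-fold lower, beside 15.0%. Expression differed with the other TAF9B peaks of a locus. Above 1 FPKM in at least 1 EB day 6 library were 713 genes at the 1174 loci with intergenic TAF9B peaks alone. There were 554 at the 633 loci that also had another TAF9B class, and 12975 at all 21110 loci. Loci nearest to TAF9B-only peaks inside genes held 1548 at 1939.

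At EB day 6, 194 of 1267 expressed neighbour genes (15.3%, 13.4 to 17.4%) were more than 2-fold lower in the library labelled KO, where the background over 12975 genes was 9.92%. In the other direction 148 (11.7%) were more than 2-fold higher, beside 10.5%. This second difference turned with no filter on low values, to 17.7% of neighbours beside 19.0% of all genes, and with a pseudocount of 1 FPKM the shares were 6.95% and 6.34%. The median log2 ratio was -0.06 for the neighbours and 0.00 for all genes. The shares differed with the other TAF9B peaks of a gene. Neighbours that were also the nearest locus of a TAF9B peak of any other class counted 109 of 554 lower (19.7%, 16.6 to 23.2%) and 7.58% higher, while those whose only TAF9B peaks were intergenic counted 85 of 713 lower (11.9%, 9.74 to 14.5%) and 14.9% higher. The intervals of both lower shares do not overlap, and the second holds the 9.92% of all genes. Of the higher shares, the 14.9% of genes with intergenic peaks alone (12.4 to 17.7%) lay above the 10.5% of all genes. The 7.58% of the other group (5.66 to 10.1%) lay below it. A raised lower share was not particular to the intergenic peaks. Neighbours of the TAF9B-only peaks inside genes counted 18.0% lower and those of TAF9B-POL2 peaks away from gene ends 17.3%. Those of TAF9B-POL2 peaks at gene ends counted 8.03%. Genes with any other TAF9B peak and no intergenic one counted 10.7% lower and 5.80% higher, and genes with no TAF9B peak 8.46% and 13.4%.

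The shares did not follow distance. They were 16.9% lower for genes with a peak at 0.5 to 5 kb, 12.8% at 5 to 10 kb, 14.9% at 10 to 50 kb, 14.0% at 50 to 200 kb and 23.5% beyond 200 kb, the last from 68 genes. With 2 or more intergenic peaks 19.5% of genes were lower (14.1 to 26.3%) and with 1 peak 14.7% (12.7 to 16.9%). Near a peak with the GC-centred E-box 48 of 243 genes were lower (19.8%, 15.2 to 25.2%) and 11.1% higher, and near a peak with the CTCF-type letters 14.6% were lower and 15.3% higher. The intervals of these groups overlap.

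**Figure D4:**
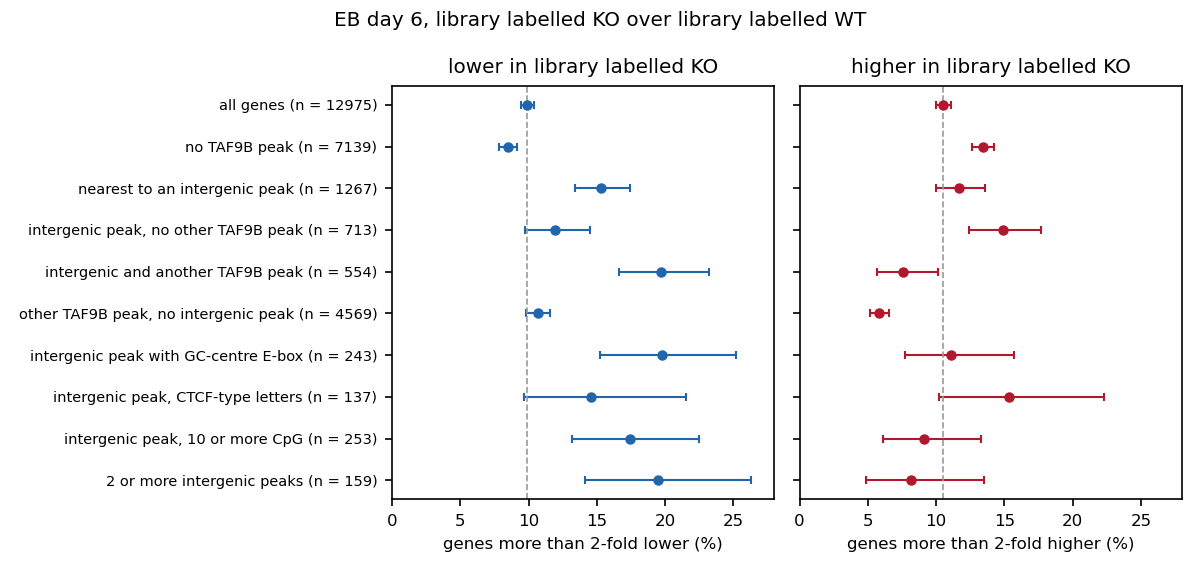
Share of expressed genes past 2-fold lower (left) and higher (right) in the KO-labelled than in the WT-labelled library of EB day 6 (horizontal axes, %), with 95% Wilson intervals, for genes grouped by the TAF9B peaks near them. Dashed lines mark all genes, at 9.92% and 10.5%. Genes with both an intergenic and another TAF9B peak are at 19.7% on the left, and genes with an intergenic peak alone at 11.9%. On the right the same groups are at 7.58% and 14.9%.

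Among the proneural bHLH neighbours, *Neurog2* (NM_009718) was listed at 0 in both ES cell libraries, at 15.8 and 1.62 FPKM at day 4 and at 44.3 and 0.219 FPKM at day 6 (labelled WT first, here and below). At day 6 it was the most highly expressed proneural gene named here in the library labelled WT. *Neurod1*, whose peak lay 42.8 kb upstream and held a CACGTG E-box, was at 9.30 and 1.16 FPKM at day 6, with a log2 ratio of -3.01. The oligodendrocyte and progenitor genes *Olig1* (8.39 and 7.52 FPKM) and *Olig3* (1.07 and 1.03 FPKM) had peaks over 40 kb away with higher scores, 131 and 227, and differed by less than 2-fold. Of the 6 expressed proneural neighbours, 4 were lower by more than 2-fold and none higher, where the whole list had 6 of 8 lower.

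Progenitor domain factors pattern the neural tube. *Nkx6-1*, required for motor neuron progenitors, had the peak with 3 E-boxes 2.91 kb from its locus and was at 30.2 and 2.67 FPKM at day 4 and 32.2 and 1.08 FPKM at day 6, with a log2 ratio of -4.90. In newborn spinal column it was at 2.77 and 0.838 FPKM. *Irx5* (8.73 and 2.19 FPKM at day 6) and *Sp8* (8.87 and 1.49 FPKM) were also lower in the library labelled KO, and *Nkx6-2* was past 2-fold at day 4 (20.8 and 8.67 FPKM) but not at day 6 (5.15 and 4.31 FPKM). The locus of the *Nkx6-2* row is long, at chr7:146575008-146768696. Of the 6 expressed progenitor domain neighbours 4 were lower past 2-fold and 1 was higher, *Msx2*, named after its values were seen, where the whole list had 7 of 12 lower and 2 higher. Both LIM homeodomain neighbours appeared at day 6. *Lhx3* was at 0.173 and 0.400 FPKM at day 4 and at 14.9 and 0.335 FPKM at day 6, with a peak 24.8 kb away. *Lhx4* was at 0.00389 and 0.011 FPKM at day 4 and at 2.83 and 0.0214 FPKM at day 6. The cholinergic locus of *Chat* and *Slc18a3*, which encode the enzyme that makes acetylcholine and its vesicular transporter, had a peak 7.29 kb upstream (score 56.7), and *Slc18a3* was at 32.2 and 0.479 FPKM. All 4 expressed pan-neuronal neighbours were lower past 2-fold at day 6, where 14 of 15 genes of the list were, among them *Ebf3*, a differentiation factor, at 8.35 and 0.641 FPKM, and *Scrt2*, a zinc finger repressor, at 20.9 and 0.373 FPKM. Of the 4 expressed neural Sox neighbours 2 were lower, where the whole list had 4 of 8. *Sox1* was at 5.03 and 2.24 FPKM, and *Sox4* (40.2 and 21.0 FPKM) and *Sox8* (1.19 and 1.24 FPKM) were within 2-fold.

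Notch signalling delays the differentiation of neural progenitors, with Delta and Jagged ligands, Notch receptors and Hes and Hey repressors as targets. The ligand gene *Dll1*, with peaks 2.32 and 4.97 kb upstream, was at 19.3 and 9.74 FPKM at day 4 and 8.95 and 2.22 FPKM at day 6. The receptor gene *Notch1* was at 5.42 and 2.46 FPKM at day 6, while the ligand gene *Jag2* (6.40 and 7.91 FPKM) and the fringe gene *Rfng* (12.5 and 9.39 FPKM) differed by less than 2-fold. The target gene *Hes5*, with peaks 2.58 and 14.4 kb upstream, had the lowest ratio of the 4 genes named from its list at both times, with 71.0 and 3.61 FPKM at day 4 and 24.4 and 0.533 FPKM at day 6. *Hey1* was at 12.2 and 1.91 FPKM. The Id genes encode bHLH proteins without a DNA-binding part. *Id3*, whose peak 3.35 kb upstream scored 421, was at 68.7 and 73.1 FPKM at day 6 but at 273 and 92.8 FPKM at day 4, and *Id4* was at 9.44 and 3.79 FPKM at day 6.

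Retinoic acid posteriorizes neural cells and induces Hox genes with Meis cofactors. Of its 5 neighbour genes 4 were more than 2-fold lower at day 6, where the whole list had 8 of 17 expressed genes lower and 1 higher. The retinoic acid degrading enzyme gene *Cyp26b1* was at 67.3 and 15.9 FPKM, *Meis1* at 44.8 and 8.68 FPKM and *Meis2* at 39.1 and 10.3 FPKM. Among Hox neighbours, *Hoxc4* was at 78.6 and 6.81 FPKM and past 2-fold, as was *Hoxb1* with a log2 ratio of -1.05, while *Hoxb9* (8.23 and 6.23 FPKM) was not. In axon guidance, *Robo2* (3.87 and 0.215 FPKM) and *Draxin* (1.91 and 0.457 FPKM) were past 2-fold and *Ntn1* (12.1 and 6.93 FPKM) was not. All 4 neighbours from the neuronal RNA-binding and cytoskeleton list were lower, namely *Snap25* (7.08 and 0.261 FPKM), *Nefl* (148 and 26.0 FPKM), *Map1b* (18.2 and 4.19 FPKM) and *Nova2* (12.4 and 0.827 FPKM), where 23 of the 24 genes of that list were.

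Neighbours from the other lists differed in direction. *Eomes* was at 1.77 and 7.09 FPKM at day 6, *Gata3* at 1.91 and 4.97 FPKM, the ligand gene *Wnt3a*, with 3 peaks, at 0.655 and 1.97 FPKM, and the pluripotency gene *Prdm14* at 2.34 and 5.59 FPKM, all higher when labelled KO. Of the other named ligand genes, *Bmp7* (17.6 and 11.2 FPKM), *Bmp2* (1.49 and 2.92 FPKM) and *Fgf15* (1.75 and 1.07 FPKM) were within 2-fold. The interneuron genes *Evx1*, *Evx2* and *Tlx1* and the mesoderm gene *T* were under 1 FPKM in both EB day 6 libraries. The heart and neural crest gene *Hand2* was lower, at 5.27 and 1.63 FPKM, and the Sonic hedgehog co-receptor gene *Gas1* was at 20.2 and 8.74 FPKM, whereas *Cdon* and *Gli2* of the same pathway were within 2-fold. None of the neighbours among mediator subunits (*Ccnc* at 19.0 and 17.6 FPKM), respiratory chain genes (*Ndufv1* at 109 and 99.2 FPKM) or ribosomal protein genes (*Rps3* at 1584 and 1602 FPKM) was past 2-fold, nor was any of the 31, 31 and 30 expressed genes of these lists as a whole.

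Of all neighbours above 1 FPKM in both EB day 6 libraries, the somatostatin gene *Sst* had the lowest ratio, at 130 and 1.99 FPKM (log2 ratio -6.02), and its peak 8.21 kb upstream held the CTCF-type letters. The long noncoding RNA *Pantr1* followed at 49.3 and 1.21 FPKM, then *Nkx6-1*, the carbonic anhydrase gene *Car14* at 25.9 and 1.11 FPKM, *Prdm8* at 47.4 and 2.07 FPKM, *Rhbdl3* at 20.4 and 1.09 FPKM, the locus of NM_023438 at 23.6 and 2.03 FPKM, and *Hoxc4*. In spinal column *Sst* was at 117 and 90.6 FPKM and *Pantr1* at 12.1 and 11.2 FPKM, both within 2-fold. At the other end, the keratin gene *Krt8* was at 47.2 and 441 FPKM (log2 ratio 3.22), followed by *Niban1* (1.59 and 12.7 FPKM), *Slco2a1* (1.47 and 7.97 FPKM), the activin subunit gene *Inhbb* (1.47 and 7.63 FPKM), *Platr5*, *Mirg*, *Sfn* and *Laptm5*. *Krt8* was already higher at day 4, at 12.5 and 107 FPKM.

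Of the 8 expressed genes at the 10 loci taken for their number of intergenic peaks, 2 were lower and 1 was higher past 2-fold at day 6, beside 9.92% and 10.5% of all genes. *Ypel2* was at 4.25 and 4.35 FPKM at day 6, *Tbx2* at 3.75 and 3.97 FPKM, and *Tle3*, a Groucho corepressor gene, at 26.8 and 26.8 FPKM. The adhesion gene *Nfasc* (3.73 and 0.540 FPKM) and the axon gene *Fez1* (22.2 and 8.34 FPKM) were lower, and the matrix gene *Sparc* was higher, at 85.9 and 282 FPKM. Of the genes near the highest-scoring peaks, *D7Ertd443e* was at 0 and 0.00914 FPKM, *Slc45a1* at 0.516 and 0.872 FPKM, *Tgfbi* at 7.49 and 10.2 FPKM and *Bmp2k* at 3.51 and 4.03 FPKM, while *Zfp286* (3.04 and 1.16 FPKM) and *Paqr3* (8.32 and 3.93 FPKM) were more than 2-fold lower.

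**Figure D5:**
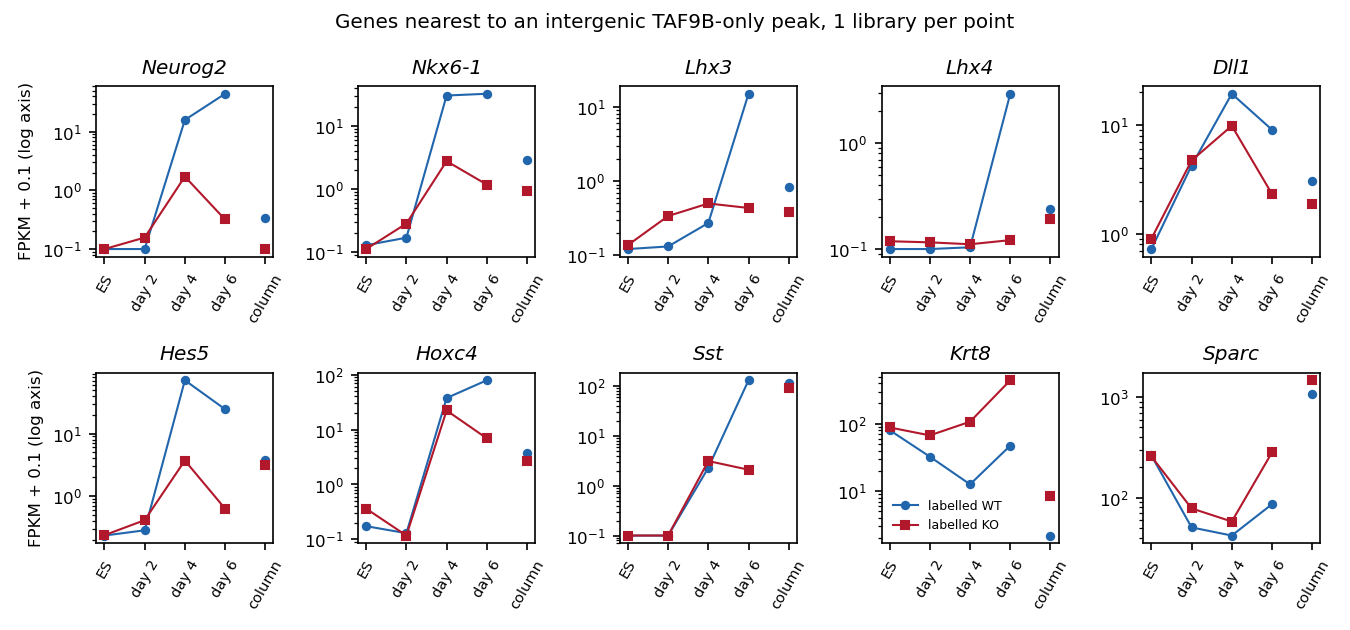
Level (FPKM + 0.1, log axis) of 10 genes nearest to an intergenic TAF9B-only peak in ES cells, in EBs at days 2, 4 and 6 and in newborn spinal column, with 1 library per point, labelled WT (circles) or KO (squares). *Neurog2*, *Nkx6-1*, *Lhx3*, *Lhx4*, *Dll1*, *Hes5*, *Hoxc4* and *Sst* are lower in the EB day 6 library labelled KO, and *Krt8* and *Sparc* are higher.

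The same count was made in the other tables. In ES cells 12 of 1127 neighbours (1.06%) were lower and 3 (0.266%) higher when labelled KO, beside 0.591% and 0.541% of all genes. At EB day 2, 1.53% were lower and 1.53% higher, beside 1.37% and 1.19%. At EB day 4, 5.81% of 1223 neighbours were lower and 15.7% higher, beside 4.41% and 12.1%. In newborn spinal column, 179 of 1383 neighbours (12.9%, 11.3 to 14.8%) were lower and 88 (6.36%, 5.19 to 7.77%) higher, beside 8.51% and 9.08% of all genes, with median log2 ratios of -0.09 for the neighbours and 0.06 for all genes. The 8 neuronal markers summed to 366 FPKM labelled WT and 226 FPKM labelled KO, of which *Tubb3* was 331 and 208 FPKM, and *Chat* was at 0.107 and 0.150 FPKM. Some named neighbours stood higher in the spinal column library labelled KO. Among them were the ribosomal protein genes *Rps3* (355 and 964 FPKM) and *Rplp1* (3007 and 5782 FPKM). The epithelial genes *Sfn* (2.04 and 26.7 FPKM) and *Krt8* (2.09 and 8.24 FPKM) were also higher. No count over genes of these kinds was made there. The part of these differences in the shares was not tested. Among the named neighbours *Map1b* was at 70.1 and 12.3 FPKM there, *Nova2* at 6.01 and 1.92 FPKM and *Ebf3* at 27.4 and 13.1 FPKM. Others were higher past 2-fold, such as *Mirg* (42.8 and 287 FPKM) and *Med31* (8.21 and 18.1 FPKM). Still others were within 2-fold, such as *Meis1* (10.2 and 7.75 FPKM) and *Hes5* (3.65 and 3.05 FPKM).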

How the data were processed

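Per the labels, the authors aligned the ChIP-seq reads by Bowtie (mm9) and made 1 peak list per antibody by MACS. The score of each peak is used as deposited, and versions and options are not given in the sources used here. The RNA-seq tables hold FPKM values that the authors made with TopHat and Cuffdiff, 1 library per condition and 2 libraries per table. Their columns of fold changes, test statistics and p-values hold the authors' comparisons and were not used. FPKM values give no read counts, so depth is unknown. The IgG library was not analysed here.

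Members and gene lists were chosen with earlier results of these data known. Overlap was at least 1 bp. A neighbour gene was any gene of the nearest locus within 50 kb. Ratios had no pseudocount and were used for genes above 1 FPKM in at least 1 library, with rows repeated at 1 locus left out (43 of 23152), and 22766 rows matched a RefSeq symbol. The genes named are those the study assayed by ChIP, the 10 with the most members, those nearest to the 10 highest scores, the 8 largest falls and rises above 1 FPKM in both libraries, and up to 4 per list by score. Genes named for label checks, rule edges, GENCODE starts, clusters and CTCF-type sites were chosen after their values were seen, as were the CTCF-type letters and the 7-letter words. Some genes that meet the rule are not reported here. Sequences came from NCBIM37 (mm9) and strands from GENCODE vM1; 7 members on unplaced sequence have no sequence here. Shares have 95% Wilson intervals. Samples were grouped by labelled genotype, line and day. Steps were tested on simulated data. Software was Python 3.11.15, numpy 2.4.6, pandas 2.3.3, scipy 1.17.1, pysam 0.24.0, BLAST 2.17.0 and matplotlib 3.10.9.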

Additional observations from a re-analysis of the deposited data

Results flagged for a closer look

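*Slco2a1*, a prostaglandin transporter gene with an intergenic TAF9B-only peak 4.49 kb downstream that holds the CTCF-type letters, was looked at again because its library labelled KO stood on opposite sides in 2 settings. The log2 ratio, labelled KO over labelled WT, was 2.44 in EBs at day 6 and -1.58 in newborn spinal column (5.04 and 1.69 FPKM). With 1 library per condition the difference between both settings was not tested.

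The mitochondrial chromosome, which the rule leaves out, held 6 TAF9B peaks with scores from 159 to 3100, and the POL2 list held 0 there. The IgG library was not analysed here, so no control level stands beside this count.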

How the results depend on the processing

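No paired analysis was possible because each condition has 1 library. Counting only peaks with a score of at least 100 left 860 members, and counting those above the median score of the list left 1225, while no margin gave 3944, a margin of 5 kb 2326 and leaving out GENCODE genes and starts 2655; with the first of these the median distance to a locus was 18.5 kb, the share within 50 kb 71.2% and the share of neighbours higher at EB day 6 13.7%. A margin of 5 kb moved the median distance to 37.7 kb. Chaining within 25 kb or 5 kb put 21.8% or 7.86% of members in clusters. At EB day 6 the share of neighbours lower was 13.1% above 5 FPKM, 18.2% with no filter, 11.4% with a pseudocount of 1 FPKM and 11.9% for neighbours with no TAF9B peak of another class, and the share higher was 9.70%, 17.7%, 6.95% and 14.9%. Over all genes the same 3 value filters gave 8.33%, 13.4% and 7.01% lower and 8.12%, 19.0% and 6.34% higher. Centring the spinal column ratios moved the share higher to 5.13%. With a score of at least 100, 15 of 19 lists were above all loci (2.80%), and the LIM, retinoic acid and respiratory chain lists had no gene left, Hox genes turned below all loci (2.56%), pluripotency genes turned above (5.88%) and interneuron genes, still above, stood at 4.76%. Without members within 1 kb of a POL2 peak Hox genes also turned below all loci (7.69% against 8.30%). With any member within 50 kb, nearest or not, 18.8% of all loci had one, beside 64.1% of Hox, 50% of retinoic acid and 33.3% of ribosomal protein genes; the neuronal RNA-binding and cytoskeleton list turned from above all loci to below (16.7%) and the respiratory chain list from below to above (19.4%). Leaving out members in GENCODE genes or at their starts, leaving out chromosome 11, centring outside EB day 6, and the neighbours with no other TAF9B peak class were chosen after seeing the data; without chromosome 11 the shares were 15.1% lower and 11.9% higher, and outside GENCODE genes and starts the share higher was 11.8%. Of 117 alternatives 33 moved, 16 of them list shares; the other 84 stayed within the interval of the reported share or median or, for counts, between 2326 and 3944 members and 15 and 17 lists. Depth is unknown for FPKM values, and 1 library per condition limits every comparison.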
